A study of Rattus norvegicus with 19 samples.

Results

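The comparison described here is between the 2 upper doses of DE-71, a commercial pentabromodiphenyl ether mixture used as a flame retardant, in rat liver. All 5 arrays at 50 mg/kg per day and all 4 arrays at 15 mg/kg per day, 9 of the 19 arrays of the study, were chosen by the dose in their titles, and 31042 probe sets were compared. The 5 vehicle arrays entered as the baseline from which the change at each dose was measured. The question was which transcripts were already close to their full change at 15 mg/kg and which moved only at 50 mg/kg.

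Liver RNA was taken on postnatal day 4 from the left lateral lobe in Wistar Han rats (Crl:WI (Han)) and hybridised to Affymetrix Rat230_2 arrays. Timed-mated females arrived at 11 to 12 weeks of age on gestation day 2. Dams received corn oil alone (vehicle) or corn oil with DE-71 at 0.1, 15 or 50 mg/kg by gavage every day from gestation day 6 through postnatal day 4, so the 15 and 50 mg/kg groups shared strain, vehicle and dosing period. Whether the organ came from pups or dams is not stated in the labels, which give the sex as female. On every one of the 19 arrays Afp, the fetal serum protein alpha-fetoprotein, was at a log2 signal of 14.47 or more. The Y-linked transcripts Eif2s3y and Uty were at 9.46 or more, and Xist, which marks an inactive X chromosome, was at 4.29 or less. These levels go against the label of female, and so against livers of dams. The mean of the hepatocyte marker list lay between 14.54 and 14.59 at 15 mg/kg and between 14.48 and 14.57 at 50 mg/kg. Of its 9 measured markers, 8 stood lower at 50 mg/kg, with a median difference of -0.06. Nothing in the labels says that replicate arrays are of separate animals or litters, so every p-value here measures the spread between these samples, which may be technical.

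Planar halogenated aromatic compounds bind the aryl hydrocarbon receptor (AhR), which pairs with Arnt and turns on Cyp1a1, Cyp1a2, Cyp1b1 and Nqo1. Many polybrominated diphenyl ethers also activate the nuclear receptors CAR and PXR, which raise cytochromes P450 of the 2b, 2c and 3a families, glucuronosyltransferases and export pumps in hepatocytes. NRF2, a transcription factor activated by electrophiles, controls glutathione enzymes and shares several targets with AhR.

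Values are log2 signals, so a difference of 1 is a doubling. Array medians lay between 6.05 and 6.16. Several arrays stood apart. The array labelled 0.1 mg/kg replicate 1 had a Cyp1a1 signal of 14.06, at the level of the 50 mg/kg arrays, which goes against its label. It is in no group compared here, but it widens the shared error estimate of the induced genes. Vehicle replicate 2 and 0.1 mg/kg replicate 2 were the closest of all pairs of arrays (SD of their difference 0.128, against 0.197 for the next pair), and both carried kidney and pancreas transcripts. Skeletal muscle transcripts were highest on vehicle replicates 1 and 5 (list means 10.32 and 8.15, against 4.61 to 5.16 on the other 3). At 50 mg/kg, replicates 2 and 3 carried them as well (8.83 and 8.29, against 4.67 to 5.09), and replicate 3 also kidney transcripts (6.41, against 4.30 to 4.54). At 15 mg/kg the muscle list was at 6.52, 7.09 and 6.16 on replicates 2, 4 and 5 and at 4.89 on replicate 3. In the same group, replicate 5 carried intestinal transcripts (9.86, against 6.31 to 6.88) and pancreatic ones (7.43, against 4.81 to 5.03). The dose also ran with the submitters' array number. At 50 mg/kg, replicates 1 to 4 are arrays 2 to 5 and replicate 5 is array 18, while at 15 mg/kg replicate 2 is array 8 and replicates 3 to 5 are arrays 13, 14 and 17. Differences were therefore also taken within arrays 1 to 8, the first stretch (4 arrays at 50 mg/kg against 1 at 15 mg/kg), and within arrays 9 to 20, the second stretch (1 against 3).

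No probe set passed the direct comparison. In limma's moderated test over all 19 arrays, 0 of 31042 probe sets (0%) had an adjusted p below 0.05 for 50 against 15 mg/kg, and the smallest adjusted p was 0.0787. At an unadjusted p below 0.05 there were 2417 probe sets (7.79%), of which 1339 (4.31%) stood higher at 50 mg/kg and 1078 (3.47%) lower. Counted by gene, with the brightest probe set of each gene, 759 of 14217 genes (5.34%) were higher and 428 (3.01%) lower at that unadjusted threshold. The groups did not overlap in 347 genes higher (2.44%) and 146 lower (1.03%). The median 95% interval of the difference reached 0.238 to either side, without adjustment for the number of probe sets. The adjusted threshold was harder to reach: Slc4a4, with a difference of 0.74 and an SE of 0.118, missed it. A missed threshold does not show equal levels. Without 50 mg/kg replicates 2 and 3 and 15 mg/kg replicate 5, those with the most muscle or intestinal transcripts at these doses, 1379 probe sets were below an unadjusted p of 0.05 and again 0 passed.

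Against vehicle, 50 mg/kg changed 317 genes (2.23% of all genes) at an adjusted p below 0.05. Of these, 254 rose (1.79%) and 63 fell (0.443%). At 15 mg/kg against vehicle 0 of 14217 genes (0%) passed, while 1411 genes (9.92%) had an unadjusted p below 0.05. Counted by probe set, 499 of 31042 (1.61%) passed at 50 mg/kg against vehicle, 380 of them higher (1.22%) and 119 lower (0.383%), and 3083 (9.93%) had an unadjusted p below 0.05 at 15 mg/kg. Fewer probe sets passed when the array number entered the fit or arrays that stood apart were left out. The fits with array number or with the 2 stretches also take in 0.1 mg/kg replicate 1, which is array 1. The part of that array in the lower counts was not tested. In place of 499 probe sets, 57 passed with the 2 stretches of arrays as a block, 171 with array number as a covariate and 2 within arrays 9 to 20. There were 76 without vehicle replicates 1 and 5 and 103 without 50 mg/kg replicates 2 and 3 and 15 mg/kg replicate 5. Leaving out any single one of vehicle replicates 1, 2, 4 and 5 or 50 mg/kg replicates 1 to 4 gave 178 to 330. Arrays did not overlap with vehicle in 478 genes (3.36%) at 15 mg/kg and in 829 (5.83%) at 50 mg/kg. Without 0.1 mg/kg replicate 1, 11 probe sets passed at 15 mg/kg, those of Cyp1a1, Cyp1a2, Cyp2a3, Cyp2c6v1, Cyp2c7, Cyp3a23-3a1, Mmgt1, Nqo1, Ugt2b1 and Ugt2b15 and 1 with no gene symbol. Both doses share the same vehicle arrays, so the 2 sets of changes are not independent of each other. The 317 genes give a scale for the question: the log2 change at 15 mg/kg divided by that at 50 mg/kg, as a percent.

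On that scale most transcripts were part of the way at 15 mg/kg. The median share was 47.4% (interquartile range 34.8 to 60.2%), 47.2% in the 254 genes that rose and 50.6% in the 63 that fell. At 80% or more stood 23 genes (7.26% of the 317), called near full here, and in 10 of them the lower end of the 95% Fieller interval was above 50%. Between 25 and 80% stood 249 genes (78.5%), and below 25% stood 45 genes (14.2%), called moved at 50 only. The edges are not gaps: Tmem82 at 81.2% and Nek6 at 79.9% lay on either side of the upper one, and Ugdh at 24.7% and Hikeshi at 25.2% on either side of the lower one. The genes were chosen on their change at 50 mg/kg, which leans the share low. A choice by the mean of both doses against vehicle is not neutral either, since it favours genes that changed at both doses. Among the 78 genes that passed it, the median share was 61.4%, with 17 near full, 59 part way and 2 below 25%. The small number below 25% follows in part from that choice.

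**Figure D1:**
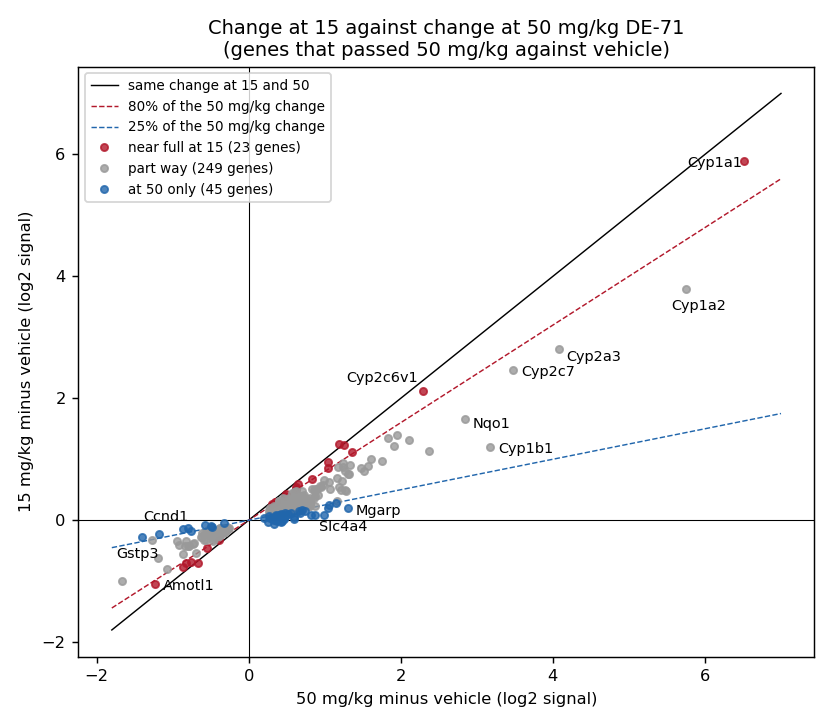
Each point is one of the 317 genes that passed 50 mg/kg against vehicle, with its log2 change at 50 mg/kg on the horizontal and at 15 mg/kg on the vertical axis; lines mark equal change, 80% and 25%. Cyp1a1 lies near the line of equal change, Cyp1a2, Cyp2a3, Cyp2c7, Nqo1 and Cyp1b1 lie below the 80% line, and the 45 genes below the 25% line lie close to 0 at 15 mg/kg.

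The direct difference can be read in the same 317 genes, and 206 of them had an unadjusted p below 0.05 for 50 against 15 mg/kg, with 106 whose groups did not overlap. These counts follow in part from the choice of genes with a large change at 50 mg/kg, and nothing further is read from them against the 8.35% of all genes with an unadjusted p below 0.05. By construction the 3 classes differ in this respect, from 0 of 23 near full genes to 161 of 249 part way and 45 of 45 at 50 only. The near full genes also sat higher in the signal range: the mean at 50 mg/kg was above 13 in 6 of 23 of them (26.1%), in 6 of 249 part way genes (2.41%), in 0 of 45 at 50 only and in 156 of all 14217 genes (1.1%). Array signals flatten toward the top of their range, and the part this plays in the near full class was not tested.

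Among the AhR targets, Cyp1a1, the monooxygenase most used as a marker of AhR activation, had the largest change and was near full on the log2 scale. Its signals were 7.10, 7.57, 7.97, 7.43 and 8.36 in vehicle, 14.17, 13.34, 13.68 and 13.16 at 15 mg/kg, and 14.30, 14.11, 14.22, 14.13 and 14.24 at 50 mg/kg. All 4 arrays at 15 mg/kg were far above vehicle, and replicate 2 overlapped the 50 mg/kg arrays while the other 3 stood below them. The change at 15 mg/kg was 90.6% of that at 50 mg/kg (95% interval 64 to 124%). On the linear scale the mean signal at 15 mg/kg was 65.4% of that at 50 mg/kg. The difference of 0.61 had an SE of 0.917 and an unadjusted p of 0.512 over all 19 arrays. Its SE was 0.264 and its unadjusted p 0.0331 without 0.1 mg/kg replicate 1 (limma adjusted p = 0.591). The difference was 0.02 in the first stretch of arrays and 0.85 in the second, so it was above 0 in both. It was -0.24 with the stretches as a block. That block is fitted over all 19 arrays, and its first stretch includes 0.1 mg/kg replicate 1, which is array 1. The part of that array in the change of sign was not tested.

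Cyp1a2, the related P450 expressed mostly in liver, was part way. It read 14.08, 11.32, 12.35 and 10.66 at 15 mg/kg against 14.33, 13.96, 14.31, 13.65 and 14.05 at 50 mg/kg, with 7.64 to 8.98 in vehicle. Replicate 2 at 15 mg/kg, array 8, lay among the 50 mg/kg arrays, and the other 3 lay between them and vehicle. The change at 15 mg/kg was 66.0% of that at 50 mg/kg (36 to 100%), and 50 mg/kg stood higher by 1.96 (SE 0.932, adjusted p = 0.644), with an interval that reached from just under 0 to 3.91. Within arrays 1 to 8 the difference was -0.02 and within arrays 9 to 20 it was 2.60.

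Cyp1b1, a P450 that is low in untreated liver, was the most uneven of the family. Its signals were 9.89, 6.17, 7.32 and 7.36 at 15 mg/kg and 11.07, 8.12, 11.00, 8.23 and 9.90 at 50 mg/kg, with 5.70 to 7.56 in vehicle. The groups overlapped through replicate 2 at 15 mg/kg. The share was 37.8% (-22 to 89%) and the difference 1.98 (SE 0.812, adjusted p = 0.588), again with opposite signs within arrays 1 to 8 (-0.29) and within arrays 9 to 20 (2.95).

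Nqo1, the quinone reductase that answers to both AhR and NRF2, kept its sign in both stretches of arrays. It read 10.47, 10.00, 9.67 and 9.38 at 15 mg/kg and 12.04, 10.80, 11.46, 10.77 and 10.27 at 50 mg/kg, with 8.12 to 8.55 in vehicle. The groups overlapped only in that 50 mg/kg replicate 5 lay below 15 mg/kg replicate 2. The share was 58.3% (32 to 85%) and the difference 1.19 (SE 0.390, adjusted p = 0.473), with 0.80 within arrays 1 to 8 and 0.59 within arrays 9 to 20. Over the AhR list, 3 of 9 measured genes were higher at 50 mg/kg at an unadjusted p below 0.05 and 0 lower, against 5.34% and 3.01% of all genes, with a median difference of 0.37 against 0.01 over all genes. The 3 were Nqo1, Cyp1b1 and Nfe2l2, the gene of NRF2 itself, which stood higher by 0.37 (0.08 and 0.50 in the 2 stretches).

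**Figure D2:**
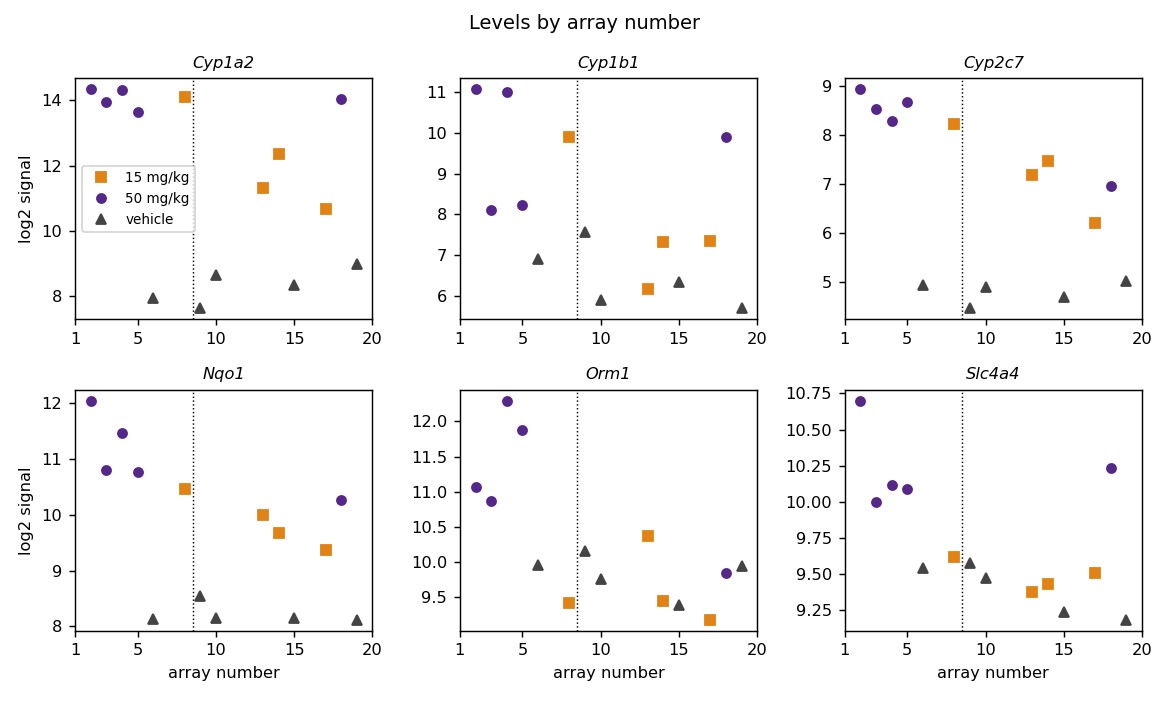
Log2 signal of 6 genes on the vertical axis against the submitters' array number, with vehicle as triangles, 15 mg/kg as squares and 50 mg/kg as circles; the dotted line separates arrays 1 to 8 from 9 to 20. At 15 mg/kg the array numbered 8 is the highest for Cyp1a2, Cyp1b1, Cyp2c7 and Nqo1, and at 50 mg/kg the array numbered 18 is the lowest for Cyp2c7, Nqo1 and Orm1, while Slc4a4 at 50 mg/kg is above all 15 mg/kg arrays on either side.

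Of the CAR and PXR targets, 14 of 24 measured genes rose at 50 mg/kg against vehicle, against 1.79% of all genes. Of the 14, 6 were near full, 7 part way and 1 at 50 only, beside 7.26%, 78.5% and 14.2% of the 317 genes. Cyp2c6v1, a phenobarbital-inducible P450, read 14.22, 14.13, 14.20 and 13.90 at 15 mg/kg and 14.38, 14.26, 14.30, 14.33 and 14.13 at 50 mg/kg, against 11.28 to 12.61 in vehicle. Every array at 15 mg/kg was above every vehicle array, and the 2 doses overlapped, with a share of 92.6% (61 to 135%) and a difference of 0.17 (95% interval -0.65 to 0.99), which was 0.10 and 0.05 in the 2 stretches. Cyp3a23-3a1, the main PXR-induced P450, rose from 13.38 ± 0.0988 in vehicle (n = 5) to 14.06 ± 0.108 at 15 mg/kg (n = 4) and 14.22 ± 0.0387 at 50 mg/kg (n = 5, mean ± SD). That was 81.4% of the full change (57 to 110%), and the doses differed by 0.06 and 0.14 in the 2 stretches. Both sit close to the top of the measured range, which ended at 15.06, and probe sets of close relatives within the Cyp2c, Cyp2a, Cyp3a and Ugt2b families can share signal.

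Cyp2c7 and Cyp2a3, P450s with low vehicle signals, were part way. Cyp2c7 read 8.22, 7.19, 7.47 and 6.22 at 15 mg/kg and 8.94, 8.55, 8.29, 8.69 and 6.97 at 50 mg/kg, with 4.47 to 5.03 in vehicle. The 50 mg/kg array numbered 18 fell among the 15 mg/kg arrays and the other 4 stood above them. The share was 70.9% (45 to 101%) and the difference 1.01, which was 0.39 within arrays 1 to 8 and 0.01 within arrays 9 to 20. Cyp2a3 stood higher at 50 mg/kg by 1.28 (SE 0.586, adjusted p = 0.634), at 68.7% (42 to 99%), with 0.57 and 0.68 in the 2 stretches. Cyp2c11 (82.9%, 37 to 149%) and Cyp2a1 (91.0%, 43 to 169%) were near full with wide intervals. Their differences of 0.23 and 0.06 turned within arrays 1 to 8, to -0.51 for Cyp2c11 and -0.24 for Cyp2a1, and within arrays 9 to 20 they were 0.16 and -0.12.

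The export pumps divided. Abcb1a (P-glycoprotein, which pumps drugs out of cells) read 6.37, 6.25, 6.59 and 6.87 at 15 mg/kg and 6.48, 6.68, 6.12, 6.63 and 6.37 at 50 mg/kg, with 4.60 to 5.74 in vehicle. The 2 doses overlapped throughout, at a share of 105% (61 to 179%), and the difference of -0.06 was 0.11 in the first stretch and -0.20 in the second. A dimmer probe set of the same gene gave changes of 1.19 and 1.63 at 15 and 50 mg/kg, so the near full reading rests on 1 of its 2 probe sets. Abcc2, the canalicular exporter of glucuronides, read 9.72, 9.52, 9.63 and 9.55 at 15 mg/kg and 9.86, 10.10, 10.43, 10.42 and 10.17 at 50 mg/kg. These groups did not overlap, and the difference was 0.59 (SE 0.177, unadjusted p = 0.00374, adjusted p = 0.465), with 0.49 within arrays 1 to 8 and 0.60 within arrays 9 to 20. Abcc3, its counterpart on the sinusoidal side, was at 63.5% (32 to 98%) and stood higher at 50 mg/kg by 0.70. That was 0.05 within arrays 1 to 8 and 0.78 within arrays 9 to 20.

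Glucuronosyltransferases, which attach glucuronic acid to drugs and steroids, were near full in 3 of the 6 Ugt genes that rose and part way in the other 3. Of the 317 genes, 7.26% were near full and 78.5% part way. Ugt2b1 read 13.86, 13.68, 13.82 and 13.52 at 15 mg/kg and 13.83, 13.87, 13.74, 13.79 and 13.83 at 50 mg/kg, with 12.56 to 12.93 in vehicle. The doses overlapped, the share was 91.3% (64 to 126%) and the difference of 0.09 was -0.06 in the first stretch and 0.16 in the second. Ugt2b15 was at 82.5%, with a difference of 0.18 that was -0.13 and 0.05 in the 2 stretches, and Ugt2b35 was at 87.1% (0.16 and 0.04 in the stretches). Part way were Ugt2b10 at 71.9% (37 to 113%), Ugt2a1 at 59.6% (30 to 91%) and Ugt2b34l1 at 57.9% (27 to 91%). Between the doses the arrays of Ugt2b10 and Ugt2b34l1 did not overlap, and the difference of 0.55 for Ugt2b10 was 0.58 and 0.31 in the 2 stretches. Ugdh, which makes the UDP-glucuronic acid these enzymes use, was at 24.7% (-17 to 59%). It read 10.08, 9.98, 9.86 and 10.08 at 15 mg/kg, within the vehicle range of 9.56 to 10.09 for all 4 arrays, and 10.62, 10.41, 10.82, 10.33 and 10.45 at 50 mg/kg. Its difference was 0.53 (SE 0.127, unadjusted p = 0.000623, adjusted p = 0.302).

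**Figure D3:**
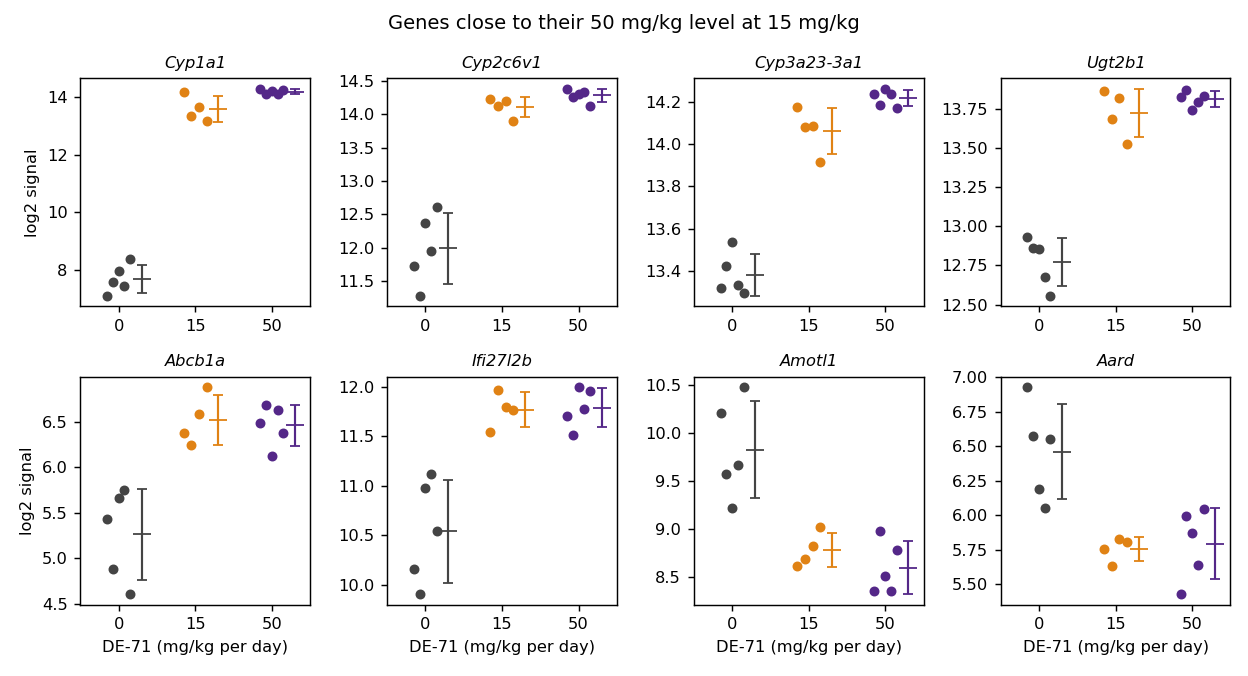
Log2 signal on each array (points) with group mean and SD (bars) in vehicle, 15 and 50 mg/kg for 8 near full genes; the vertical axes differ between panels and do not start at 0. The 15 and 50 mg/kg arrays overlap in every panel, and the vehicle arrays stand apart from both in every panel.

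Among 15 measured genes that supply the P450 system with electrons and heme, 4 rose at 50 mg/kg against vehicle (1.79% of all genes). These were Alas1, Por, Cyb5a and Pgrmc1, all part way (78.5% of the 317 genes), and the other 11 did not pass. Alas1, the rate-limiting enzyme of heme synthesis, read 11.73, 11.58, 11.76 and 11.56 at 15 mg/kg and 12.34, 12.23, 12.60, 12.38 and 12.21 at 50 mg/kg, with 10.37 to 11.20 in vehicle. All 3 groups stood apart from each other, at a share of 54.0% (26 to 83%) and a difference of 0.70 (SE 0.224, adjusted p = 0.465), similar within arrays 1 to 8 (0.65) and within arrays 9 to 20 (0.58). Por, the reductase that feeds electrons to microsomal P450s, was at 57.8% (21 to 97%), with a difference of 0.56 that was 0.53 and 0.03 in the 2 stretches. Cyb5a, cytochrome b5, was at 77.6% (30 to 144%), with a difference of 0.09 that was -0.02 and 0.11. In this list 5 of 15 measured genes were higher at 50 mg/kg at an unadjusted p below 0.05 (Alas1, Por, Pgrmc1, Hmox2 and Blvrb) and 1 lower (Hmox1), against 5.34% and 3.01% of all genes.

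Ephx1, the microsomal epoxide hydrolase, also separated the 3 groups, with 12.57, 12.20, 12.31 and 11.92 at 15 mg/kg and 13.13, 12.71, 13.06, 12.86 and 12.62 at 50 mg/kg, against 11.13 to 11.61 in vehicle. Its share was 57.7% (26 to 91%), and its difference of 0.62 was 0.37 and 0.47 in the 2 stretches. Ces2c, a carboxylesterase, was at 55.4% (28 to 84%) and stood higher at 50 mg/kg by 0.78, which was 1.04 within arrays 1 to 8 and 0.12 within arrays 9 to 20. Gadd45b, a stress gene that CAR activates, read 6.46, 6.42, 6.47 and 6.59 at 15 mg/kg and 6.72, 7.93, 7.79, 7.44 and 6.51 at 50 mg/kg. Replicate 5 at 50 mg/kg lay inside the 15 mg/kg range, and the difference was 1.01 within arrays 1 to 8 but 0.02 within arrays 9 to 20. Across the CAR and PXR list 7 of 24 genes were higher at 50 mg/kg at an unadjusted p below 0.05 and 1 lower, against 5.34% and 3.01% of all genes, with a median difference of 0.25. The 1 lower was Cyp2b3, with means of 11.25 in vehicle, 11.86 at 15 mg/kg and 11.23 at 50 mg/kg. Cyp2b1 and Cyp2b2, also on the list, were not among the 24 genes measured, so Cyp2b3 does not stand for the 2b family.

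Of 33 measured NRF2 and glutathione genes, 12 rose against vehicle at 50 mg/kg (1.79% of all genes). Of the 12, 10 were part way, 2 at 50 only and 0 near full, beside 78.5%, 14.2% and 7.26% of the 317 genes. At an unadjusted p below 0.05, 11 of the 33 were higher at 50 than at 15 mg/kg and 1 lower, against 5.34% and 3.01% of all genes. Gstm1, a glutathione transferase, read 12.04, 11.27, 11.37 and 11.24 at 15 mg/kg and 12.34, 12.19, 12.71, 11.93 and 12.25 at 50 mg/kg, with 10.82 to 11.37 in vehicle. The doses overlapped only through replicate 2 at 15 mg/kg, and 2 of the other 3 arrays at 15 mg/kg were inside the vehicle range. The share was 37.4% (-1 to 72%), and the difference of 0.80 was 0.26 and 0.96 in the 2 stretches. Me1, the malic enzyme that makes NADPH, was at 40.6% (9 to 70%) with no overlap between the doses, the highest array at 15 mg/kg being at 7.91 and the lowest at 50 mg/kg at 7.94. Its difference of 0.72 was 0.88 within arrays 1 to 8 and 0.15 within arrays 9 to 20. The NADPH-dependent reductases Gsr and Txnrd1 were at 45.2% (-5 to 93%) and 42.7% (-5 to 87%), the latter with differences of 0.12 and 0.42 in the 2 stretches.

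The theta class of glutathione transferases went in order from part way to 50 only. Gstt2 was at 37.8% (-3 to 75%), Gstt1 at 24.0% (-40 to 71%) and Gstt3 at 9.6% (-44 to 48%), with intervals that overlap widely. Gstt3 read 10.51, 10.59, 10.52 and 10.02 at 15 mg/kg, all within the vehicle range of 9.88 to 10.61, and 11.39, 11.00, 11.59, 11.12 and 10.87 at 50 mg/kg. All 5 arrays at 50 mg/kg were above all 9 others of these groups, and the difference was 0.78 (SE 0.177, unadjusted p = 0.000337, adjusted p = 0.272), with 0.76 and 0.50 in the 2 stretches. Gstp3, a pi-class transferase, went the other way, with 11.44, 10.80, 11.17 and 10.82 at 15 mg/kg and 9.79, 10.65, 9.28, 9.81 and 10.14 at 50 mg/kg. It fell by 1.40 at 50 mg/kg against vehicle and was at 19.4% of that at 15 mg/kg (-30 to 57%).

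**Figure D4:**
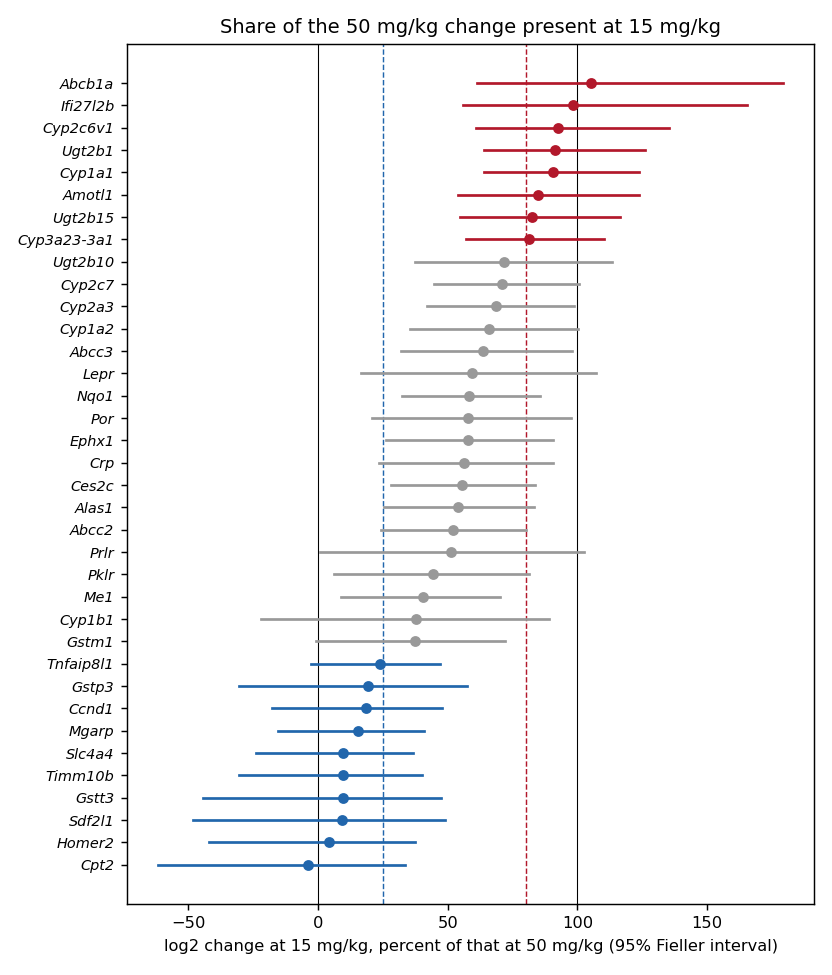
Log2 change at 15 mg/kg as a percent of that at 50 mg/kg (points) with 95% Fieller intervals (lines) for 36 genes that passed 50 mg/kg against vehicle, near full in red, part way in grey and at 50 only in blue. Abcb1a, Ifi27l2b, Cyp2c6v1, Ugt2b1 and Cyp1a1 have intervals that begin above 50% and include 100%, while Slc4a4, Mgarp, Tnfaip8l1, Timm10b, Homer2 and Cpt2 have intervals that end below 50%.

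The 10 genes with the smallest p for 50 against 15 mg/kg were Slc4a4, Mgarp, Tnfaip8l1, Timm10b, Homer2, Zfp655, Cpt2, Ccnd1, Psmd14 and Tbl1xr1. Of these, 8 were in the class at 50 only, which holds 45 of all 14217 genes. That count follows in part from how the class is defined, since all 45 had an unadjusted p below 0.05 between the doses. Slc4a4, the sodium bicarbonate cotransporter, read 9.54, 9.58, 9.48, 9.24 and 9.18 in vehicle, 9.62, 9.38, 9.43 and 9.51 at 15 mg/kg, and 10.70, 10.00, 10.12, 10.09 and 10.24 at 50 mg/kg. The 15 mg/kg arrays lay among the vehicle arrays and all 50 mg/kg arrays lay above both. The difference between the doses was 0.74 (SE 0.118, adjusted p = 0.0787), a 1.67-fold higher signal, and the share at 15 mg/kg was 9.8% (-24 to 37%). It was 0.61 within arrays 1 to 8 and 0.80 within arrays 9 to 20. A dimmer probe set of the gene differed by 0.31 (adjusted p = 0.764). Against vehicle that probe set changed by 0.14 at 15 mg/kg and 0.44 at 50 mg/kg, and it did not pass at 50 mg/kg (limma adjusted p = 0.255). The class at 50 only thus rests on the brighter probe set.

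Mgarp, a mitochondrial membrane protein, read 7.44, 7.73, 7.60 and 7.29 at 15 mg/kg and 8.76, 8.31, 8.78, 8.85 and 8.40 at 50 mg/kg, with 6.92 to 7.63 in vehicle. The gap between the doses was clear on every array, at 1.10 (SE 0.178, adjusted p = 0.0787), and was 1.23 within arrays 1 to 8 and 0.85 within arrays 9 to 20. Tnfaip8l1, of the TNFAIP8 family, read 6.03, 6.01, 5.49 and 5.43 at 15 mg/kg and 6.62, 6.79, 6.48, 6.66 and 6.55 at 50 mg/kg, with 5.25 to 5.68 in vehicle. Here 2 of the 4 arrays at 15 mg/kg were above vehicle and 2 inside its range, the share was 23.9% (-2 to 47%) and the difference 0.88 (SE 0.143, adjusted p = 0.0787).

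Timm10b, of the inner membrane import machinery, stood higher at 50 mg/kg by 0.54 (8.65 to 8.93 against 8.02 to 8.39 at 15 mg/kg). A dimmer probe set of Timm10b differed by 0.25 between the doses. Against vehicle it changed by 0.22 at 15 mg/kg and 0.47 at 50 mg/kg, so the class at 50 only rests on the brighter one. Cpt2, the carnitine palmitoyltransferase of the inner membrane, read 10.26, 10.32, 10.25 and 10.09 at 15 mg/kg and 10.69, 10.67, 10.74, 10.70 and 10.59 at 50 mg/kg, with a mean of 10.25 in vehicle. Its share was -3.9% (-61 to 34%) and its difference 0.45 (SE 0.0863, adjusted p = 0.189). Homer2, a scaffold protein, stood higher by 0.57 and was at 4.2% (-42 to 37%). Tbl1xr1, a corepressor subunit, stood higher by 0.40, with a level at 15 mg/kg slightly under vehicle (9.62 against 9.69). Its dimmer probe sets stood above vehicle by 0.096 to 0.197 at 15 mg/kg and by 0.225 to 0.497 at 50 mg/kg. The class at 50 only thus rests on its brightest probe set. Psmd14, the deubiquitinase of the proteasome lid, was in the part way class at 29.4% (-1 to 56%), with 10.39 to 10.49 at 15 mg/kg, 10.65 to 10.93 at 50 mg/kg and 10.18 to 10.35 in vehicle. Zfp655 stood higher than at 15 mg/kg by 0.39 but did not pass 50 mg/kg against vehicle (adjusted p = 0.0911), and its difference was 0.61 and 0.35 in the 2 stretches.

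Ccnd1, the cyclin D1 that drives entry into the cell cycle, was the single gene of the 10 that stood lower. It read 9.75, 10.24, 9.52, 9.18 and 9.33 in vehicle, 9.25, 9.36, 9.52 and 9.41 at 15 mg/kg, and 7.96, 8.62, 8.46, 8.34 and 8.73 at 50 mg/kg. The 15 mg/kg arrays were within the vehicle range and the 50 mg/kg arrays were below all of them. The difference was -0.97 (SE 0.186, unadjusted p = 6.5e-05, adjusted p = 0.189), and the share at 15 mg/kg was 18.5% (-18 to 48%). Its other 2 probe sets differed by -0.94 and -1.15. Of the other 16 G1 genes measured, 0 had an unadjusted p below 0.05, and of 28 genes of S phase and mitosis 2 were higher (7.14%, near the 5.34% of all genes) and 0 lower (3.01% of all genes).

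**Figure D5:**
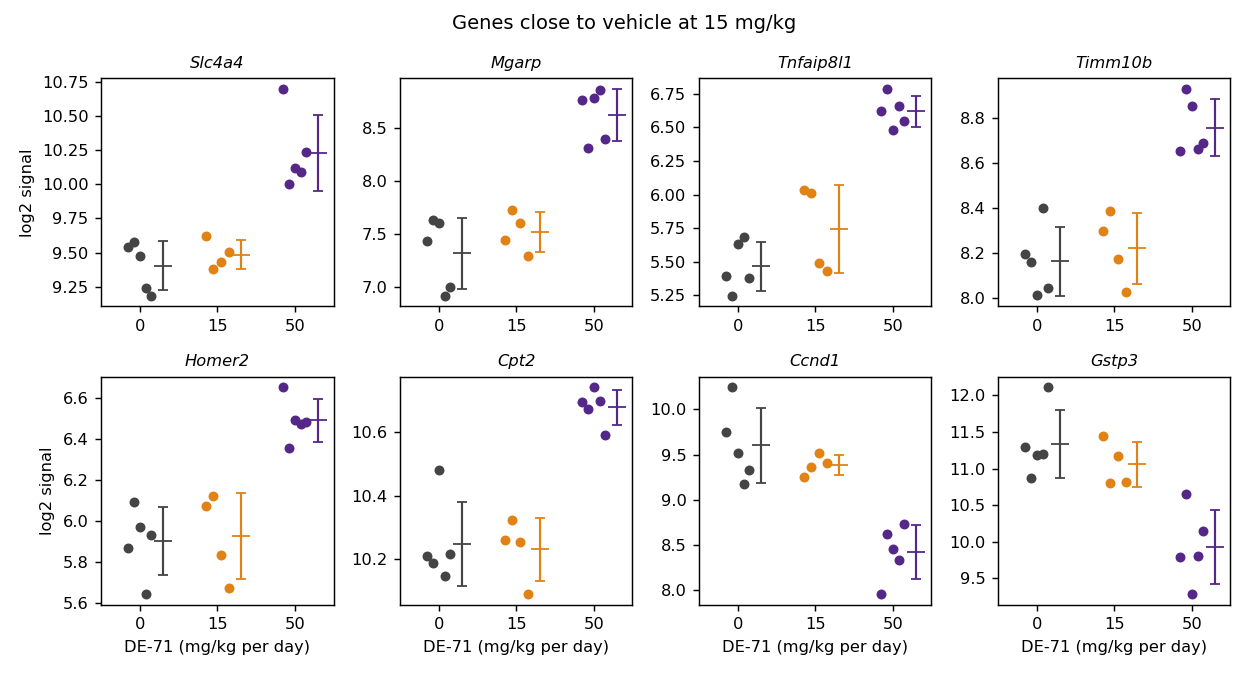
Log2 signal on each array (points) with group mean and SD (bars) for 8 genes of the class at 50 only; the vertical axes differ between panels and do not start at 0. In each panel the 15 mg/kg arrays overlap the vehicle arrays and all 50 mg/kg arrays lie apart from the 15 mg/kg arrays, above them in 6 panels and below them for Ccnd1 and Gstp3.

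Upstream sequence is shown for 2 AhR targets of the part way class and for the 2 genes with the smallest p, since AhR with Arnt binds the core GCGTG and a reader can see whether those letters stand next to the gene start. Each line gives the 250 bases before the gene start, 5′ to 3′ on the gene's strand, from RefSeq on GRCr8, in lower case with GCGTG or its reverse complement CACGC in capitals. All 4 genes are on the minus strand. Cyp1a2 is at chr8:66978150-66978399, Nqo1 at chr19:52220268-52220517, Slc4a4 at chr14:19468283-19468532 and Mgarp at chr2:137590295-137590544.
Cyp1a2: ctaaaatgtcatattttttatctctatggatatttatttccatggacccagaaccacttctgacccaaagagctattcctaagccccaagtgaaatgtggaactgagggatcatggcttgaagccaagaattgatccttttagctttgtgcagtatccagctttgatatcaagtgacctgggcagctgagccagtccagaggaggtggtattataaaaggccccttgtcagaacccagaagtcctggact
Nqo1: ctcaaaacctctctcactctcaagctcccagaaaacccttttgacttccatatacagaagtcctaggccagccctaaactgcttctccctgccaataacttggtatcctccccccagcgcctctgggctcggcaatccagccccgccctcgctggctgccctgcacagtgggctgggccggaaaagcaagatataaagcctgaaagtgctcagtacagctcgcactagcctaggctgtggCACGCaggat
Slc4a4: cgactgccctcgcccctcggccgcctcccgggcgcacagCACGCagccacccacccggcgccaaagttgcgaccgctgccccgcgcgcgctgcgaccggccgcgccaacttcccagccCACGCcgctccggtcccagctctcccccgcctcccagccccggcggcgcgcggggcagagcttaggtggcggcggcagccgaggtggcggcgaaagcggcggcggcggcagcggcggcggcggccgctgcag
Mgarp: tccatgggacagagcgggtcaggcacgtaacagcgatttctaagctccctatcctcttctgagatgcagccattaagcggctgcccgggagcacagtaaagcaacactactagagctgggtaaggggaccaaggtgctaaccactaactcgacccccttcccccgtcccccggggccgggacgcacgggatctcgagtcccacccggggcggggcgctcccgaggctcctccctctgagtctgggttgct

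Nqo1 holds the core once, 10 bases before its start, Slc4a4 holds it 2 times, and the windows of Cyp1a2 and Mgarp do not hold these letters. The core, on either strand, stood in 41.0% of the 250-base windows of array genes (4793 of 11700) and in 25.9% of all 33469 windows of the table. It stood in 5 of 19 near full genes (26.3%), 105 of 212 part way genes (49.5%) and 17 of 35 genes at 50 only (48.6%) with a window. A match is a description of letters, not of binding.

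Other members of the class at 50 only were a mixed set. Sdf2l1, an endoplasmic reticulum chaperone cofactor, read 8.54, 8.94, 8.40 and 8.85 at 15 mg/kg and 9.19, 10.23, 9.74, 9.49 and 9.26 at 50 mg/kg, with 8.25 to 9.06 in vehicle. All arrays at 50 mg/kg were above all others of these groups, and the difference was 0.90 (SE 0.213, adjusted p = 0.287), with 1.12 and 0.53 in the 2 stretches. Adgrg2, an adhesion receptor, rose by 1.05 at 50 mg/kg against vehicle and was at 18.8% at 15 mg/kg (-33 to 58%). Mmp14, a membrane metalloproteinase, fell by 0.86 and was at 17.2% (-54 to 65%), with dose differences of -1.23 and -0.48 in the 2 stretches. Within the unfolded protein response list 4 of 27 genes were higher at 50 mg/kg at an unadjusted p below 0.05 (Sdf2l1, Calr, Hyou1 and Xbp1) and 0 lower, against 5.34% and 3.01% of all genes, with a median difference of 0.06.

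Outside the detoxification genes the near full class held Ifi27l2b, of a family of interferon-induced mitochondrial proteins, the smaller rises of Tmem82, Dnajc3, Calr4, Ubl3, Mcoln1 and Ctsl, and 7 genes that fell (Amotl1, Aard, Prtg, Gsn, Ablim3, Crat and Ppp2r5c). Ifi27l2b read 11.54, 11.97, 11.79 and 11.76 at 15 mg/kg and 11.70, 11.51, 11.99, 11.78 and 11.96 at 50 mg/kg, with 9.90 to 11.12 in vehicle. The doses overlapped fully, at a share of 98.3% (56 to 165%), with differences of 0.02 over all arrays and 0.20 and 0.12 in the 2 stretches. The interferon list had 0 of 28 genes with an unadjusted p below 0.05 between the doses (8.35% of all genes). Against vehicle 4 of the 28 rose at 50 mg/kg (1.79% of all genes), among them Usp18 (69.9%) and Isg15 (67.4%). All 4 were part way (78.5% of the 317 genes). The differences of 0.37 for Usp18 and 0.32 for Isg15 turned to -0.23 and -0.10 within arrays 9 to 20. Amotl1, an angiomotin family scaffold of the Hippo pathway, read 8.61, 8.69, 8.82 and 9.02 at 15 mg/kg and 8.35, 8.98, 8.51, 8.35 and 8.78 at 50 mg/kg, against 9.21 to 10.47 in vehicle. It fell by 1.23 at 50 mg/kg and was at 84.7% at 15 mg/kg (54 to 124%), with a dose difference of -0.19 that was -0.06 in each stretch. A dimmer probe set of Amotl1, at means of 4.60 and 4.42 at 15 and 50 mg/kg, changed by -0.08 and -0.25 against vehicle. It did not pass at 50 mg/kg (limma adjusted p = 0.181), so the near full reading rests on the brighter probe set. Aard, an alanine and arginine rich protein, was at 106% (60 to 187%), and its difference of 0.04 was -0.02 and 0.29 in the 2 stretches. Ctsl, a lysosomal protease that rose, was at 85.8% (49 to 137%), with 0.09 over all arrays and 0.18 and 0.11 in the stretches. In bulk liver, fewer cells of a type and less RNA per cell cannot be told apart.

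In the list of growth hormone, prolactin and leptin signalling 3 of 22 genes fell at 50 mg/kg against vehicle (0.443% of all genes). These were Prlr, Lepr and Igfbp2, all part way at 15 mg/kg (78.5% of the 317 genes). The other 19, among them the receptors Ghr and Igf1r, did not pass. Prlr, the prolactin receptor, read 8.60, 8.24, 8.74 and 8.73 at 15 mg/kg and 8.19, 8.23, 7.41, 8.07 and 8.08 at 50 mg/kg, with 8.76 to 10.25 in vehicle. The 3 groups did not overlap, though by narrow margins, and the share was 51.3% (1 to 103%). Lepr, the leptin receptor, was at 59.5% (16 to 107%), and its difference of -0.68 was -0.92 within arrays 1 to 8 and -0.11 within arrays 9 to 20. Igfbp2, which carries insulin-like growth factors, was at 30.2% (-20 to 72%), with a difference of -0.38 that was -0.48 and -0.04 in the 2 stretches. Between the doses 2 of the 22 genes were lower at 50 mg/kg at an unadjusted p below 0.05 (Stat3 and Igfbp2) and 0 higher, against 3.01% and 5.34% of all genes, with a median difference of -0.19. Pklr, the liver pyruvate kinase, fell by 0.91 at 50 mg/kg and was at 44.5% (6 to 81%), with dose differences of -0.58 and -0.08 in the 2 stretches.

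The acute phase list had the largest share of members higher at 50 mg/kg at an unadjusted p below 0.05 among the 36 lists counted, 9 of 21, with 0 lower, against 5.34% and 3.01% of all genes, and a median difference of 0.11. The 9 were Orm1, Lcn2, Crp, Lbp, C9, Serpina3n, Fgb, Itih4 and Fga, plasma proteins that liver makes in inflammation, and only Crp passed 50 mg/kg against vehicle. Orm1, orosomucoid, read 9.42, 10.36, 9.44 and 9.17 at 15 mg/kg and 11.07, 10.87, 12.29, 11.87 and 9.84 at 50 mg/kg, with 9.39 to 10.16 in vehicle. Replicates 1 to 4 at 50 mg/kg stood above every other array of these groups and replicate 5 stood within the vehicle range, so the difference of 1.59 (SE 0.382, adjusted p = 0.299) was 2.11 within arrays 1 to 8 and 0.18 within arrays 9 to 20. Lcn2, lipocalin 2, behaved alike, with 1.38 and -0.11, and C9 with 0.49 and -0.32. In the same 2 stretches Lbp was at 0.10 and 0.26, Serpina3n at 0.15 and 0.06 and Fgb at 0.22 and 0.07. Whether these genes follow the dose or the array number cannot be told apart on these arrays. Lcn2 is also made by neutrophils, whose list mean was 8.87 to 9.23 at 15 mg/kg and 8.61 to 9.26 at 50 mg/kg.

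Crp, C-reactive protein, kept its sign in both stretches of arrays (0.72 and 0.34), as did Orm1, Lbp, Serpina3n and Fgb. It read 12.10, 11.83, 12.56 and 11.67 at 15 mg/kg and 13.15, 12.80, 12.67, 12.66 and 12.36 at 50 mg/kg, with 10.87 to 11.84 in vehicle. Only replicate 5 at 50 mg/kg lay inside the 15 mg/kg range, and the share was 56.1% (23 to 90%). In the list of coatomer (COPI) and transport from the endoplasmic reticulum to the Golgi 5 of 21 genes were higher at 50 mg/kg at an unadjusted p below 0.05 and 0 lower, against 5.34% and 3.01% of all genes, with small differences such as 0.19 for Copg1, which was 0.32 and -0.01 in the 2 stretches. The list of cholesterol genes had 0 of 21 in either direction (8.35% of all genes) and a median difference of -0.07.

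Markers of other tissues differed between the arrays of a dose, and some lists leaned one way between the doses. The intestinal list had 2 of 9 genes lower at 50 mg/kg at an unadjusted p below 0.05 (3.01% of all genes), with a list mean on the 15 mg/kg arrays from 6.31 to 9.86 and on the 50 mg/kg arrays from 6.25 to 6.42, the top value being 15 mg/kg replicate 5. The muscle list ranged from 4.89 to 7.09 at 15 mg/kg and from 4.67 to 8.83 at 50 mg/kg, the matrix and stellate cell list from 8.41 to 9.62 and from 8.51 to 9.69. In the kidney list 11 of 11 genes stood higher at 50 mg/kg (median difference 0.33, list means 4.33 to 4.35 at 15 mg/kg and 4.30 to 6.41 at 50 mg/kg). Exocrine pancreas genes stood lower in 14 of 15 (median -0.76, 4.81 to 7.43 and 4.68 to 4.84), and lymphocyte genes in 9 of 11 (median -0.19, 5.45 to 5.67 and 5.37 to 5.46). None of these 3 lists had a member with an unadjusted p below 0.05. Hepatocyte genes stood lower in 8 of 9 (median -0.06), Kupffer cell and macrophage genes in 10 of 11 (median -0.10) and bile duct genes in 7 of 8 (median -0.21). At an unadjusted p below 0.05, 1 hepatocyte gene was higher and 1 lower, and 1 bile duct gene was lower, against 5.34% and 3.01% of all genes. The part of these tissues and cells in the results above was not tested. Without 15 mg/kg replicate 5 the class at 50 only held 29 of the 317 genes instead of 45, and without 15 mg/kg replicate 5 and 50 mg/kg replicates 2 and 3 it held 27.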

How the data were processed

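Liver RNA (100 ng) was amplified per the labels' protocols. The deposited values are log2 signals made with RMA (background correction, quantile normalization and probe summary), per the submitters' processing notes. The RMA version was not given in the sources used here, and the method narrows differences among very dim and very bright probe sets. Of 31099 probe sets, 57 controls were left out. One gene symbol was given for 20826, several for 436 and none for 9780; 20758 matched RefSeq. Where several probe sets shared a gene, the brightest on average over 19 arrays was used.

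With limma 3.58.1 (R 4.3.3) a mean was fitted for each dose over 19 arrays (15 residual and 2.78 prior degrees of freedom), two-sided, with p-values adjusted by Benjamini-Hochberg over every probe set and a threshold of 0.05. Shares carry Fieller intervals at 95%. Tested on simulated data for 50 against 15 mg/kg on 31042 probe sets, the fit recovered 56.7%, 85.1% and 98.5% of probe sets shifted by 0.5, 1 and 2, with 4.76% false calls. The simulated noise was independent between probe sets, without outlying arrays, carried-over tissue or a tie of dose to array number. These rates check the fit and do not describe what it can recover on these arrays. The number of arrays limits the precision.

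Named were the 10 smallest p-values where fewer than 10 genes passed, the 10 largest near full changes, up to 4 members per list, and the genes of the drug metabolism and growth lists given in advance; further members were named after their values were seen. Members and lists were chosen with earlier results of these data known. No gene passed 15 mg/kg against vehicle, so shares were not computed on such a choice; the choice by the mean of both doses was added after seeing the data. Replicate numbers did not pair the arrays. Sequences were not used here for genes missing from the promoter table.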

Additional observations from a re-analysis of the deposited data

Results flagged for a closer look

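Within the groups of 4 or 5 arrays, 255 sets of values of the genes named here were looked at for 1 array far from the rest by Dixon's criterion, and 20 stood out. Chance alone marks about 1 in 20 such sets, and the array of the same group nearest to each is given for comparison. No cause was tested for any of them.

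At 15 mg/kg, Gstm1 read 12.04 on replicate 2, above the nearest other array at 11.37. Tsku read 9.55 on replicate 3, below the nearest other array at 10.04. Gstt3 read 10.02 on replicate 5, below the nearest other array at 10.51. Ttr read 14.63 on replicate 2, above the nearest other array at 14.55. Ctsl read 13.66 on replicate 5, above the nearest other array at 13.10.

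At 50 mg/kg, Ugt2b35 read 13.98 on replicate 4, below the nearest other array at 14.02. Prlr read 7.41 on replicate 3, below the nearest other array at 8.07. Sec13 read 11.37 on replicate 1, above the nearest other array at 11.16. C9 read 12.49 on replicate 5, below the nearest other array at 13.44. Serpina3n read 12.78 on replicate 5, below the nearest other array at 13.14.

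In vehicle, Cpt2 read 10.48 on replicate 3, above the nearest other array at 10.22. Psmd14 read 10.18 on replicate 5, below the nearest other array at 10.30. Nqo1 read 8.55 on replicate 2, above the nearest other array at 8.16. Pgrmc1 read 12.48 on replicate 4, below the nearest other array at 12.72. Gstm1 read 11.37 on replicate 5, above the nearest other array at 10.98. Prlr read 10.25 on replicate 5, above the nearest other array at 9.09. Crp read 11.84 on replicate 3, above the nearest other array at 11.08. Camp read 9.97 on replicate 1, below the nearest other array at 11.08. Lgals4 read 7.58 on replicate 2, above the nearest other array at 5.06. Muc2 read 8.31 on replicate 2, above the nearest other array at 4.95.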

How the results depend on the processing

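Of the alternatives, 4 were chosen after seeing the data. Under 36 alternatives the count of probe sets that passed 50 against 15 mg/kg stayed at 0, except within arrays 1 to 8, where 5 passed, those of Ddc and Col27a1 and 3 not given 1 gene symbol, all lower at 50 mg/kg and named after their values were seen. That comparison sets 4 arrays against 1, and the lone array is assumed to vary like the other groups. The count at an unadjusted p below 0.05 was 1497 with probe sets at or above the median level, 1379 without 15 mg/kg replicate 5 and 50 mg/kg replicates 2 and 3, and 1309 within arrays 9 to 20. The probe sets that passed 15 mg/kg against vehicle, 0 in the fit reported, were 4 with the filter at the median level, 8 with 14 arrays and 8 with array number as a covariate. They were 7 with the 2 stretches of arrays as a block, 13 with array weights, 10 without 0.1 mg/kg replicates 1 and 2 and vehicle replicate 2, 88 within arrays 1 to 8 and 6 within arrays 9 to 20. Leaving out single arrays gave 0 to 11. Those that passed 50 mg/kg against vehicle, 499 in the fit reported, were 171 with array number as a covariate, 57 with the block of 2 stretches, 921 with array weights, 101 at an adjusted p below 0.01, 103 without 15 mg/kg replicate 5 and 50 mg/kg replicates 2 and 3, 76 without vehicle replicates 1 and 5, and 2 within arrays 9 to 20. Leaving out single arrays gave 178 (without 50 mg/kg replicate 1) to 704 (without 0.1 mg/kg replicate 2).

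Of the 317 genes, near full were 40 with array number as a covariate, 41 with the block of 2 stretches, 81 within arrays 1 to 8 and 66 within arrays 9 to 20. Part way were 162 and at 50 only 74 within arrays 1 to 8. At 50 only were 27 without the same 3 arrays of 15 and 50 mg/kg, and 29 (without 15 mg/kg replicate 5) to 62 (without 15 mg/kg replicate 3) with single arrays left out. The cause of these moves was not tested.

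With the replicate block 0 probe sets passed 50 against 15 mg/kg (smallest adjusted p 0.19), 2580 had an unadjusted p below 0.05 and 511 passed 50 mg/kg against vehicle. The replicate numbers did not pair the arrays (correlations of deviations 0.228, -0.37, -0.0357 and -0.123 for replicates 2 to 5).

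Of 85 genes followed, 66 kept their direction under every alternative run and 0 of 3052 recomputed differences passed an adjusted p of 0.05. The fits with array number or with the block also take in 0.1 mg/kg replicate 1, which is array 1, and its part was not tested. On the log2 scale, the reversed differences follow. With array number as a covariate they were -0.151 for Cyp1a1, -0.0648 for Ugt2b1, -0.150 for Cyp2c11 and -0.0579 for Cyp2a1. With the block of 2 stretches they were -0.241 for Cyp1a1, -0.107 for Cyp2c6v1, -0.00502 for Ifi27l2b, -0.0382 for Ugt2b15, -0.0715 for Ugt2b1, -0.162 for Cyp2c11 and -0.152 for Cyp2a1. Within arrays 1 to 8 they were 0.108 for Abcb1a, -0.134 for Ugt2b15, -0.0560 for Ugt2b1, -0.0197 for Aard, -0.0214 for Cyp1a2, -0.288 for Cyp1b1, -0.0218 for Cyb5a, -0.0291 for Scd, -0.511 for Cyp2c11 and -0.243 for Cyp2a1. Within arrays 9 to 20 they were 0.0194 for Aldh1b1, -0.229 for Usp18, -0.101 for Isg15, -0.114 for Lcn2, -0.320 for C9, -0.122 for Cyp2a1 and -0.00989 for Copg1. Without those 3 arrays they were 0.0932 for Abcb1a, -0.0346 for Aard, -0.162 for Isg15, -0.100 for Cyp2c11 and -0.0559 for Cyp2a1. Ifi27l2b was -0.0171 with the replicate block, -0.0131 with cyclic loess and -0.000627 with array weights, and Abcb1a was 0.00169 with array weights and 0.190 with the mean of its probe sets. With single arrays left out, the differences of the genes that reversed at least once spanned -0.0542 to 0.0903 for Ifi27l2b, -0.153 to 0.0565 for Abcb1a, -0.0224 to 0.132 for Aard, -0.0877 to 0.509 for Cyp2c11 and -0.0271 to 0.185 for Cyp2a1. Of 1260 recomputed list medians 25 moved by more than the spread between arrays.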
